A study of Homo sapiens with 15 samples.

Results

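SERPINB2, PLAU and PLAUR, 3 of the 26485 gene symbols counted, encode an inhibitor, an enzyme and a receptor of the plasminogen activator system. They were taken by gene symbol from the table of read counts, and all 3 were among the 17243 genes that passed the filter on low counts. The genes were selected on measured values, because their levels in all 5 groups were known when they were selected. Their levels and fold changes are therefore given as a description, with no test.

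RNA-seq was collected from U937 and ML1, both human myeloid leukemia cell lines, after 24 h of treatment, in 5 groups of 3 libraries. U937 cells received 10 nM prexasertib with 350 nM LSN622666 (the combination), 10 nM prexasertib alone, or diluent. ML1 cells received 10 nM prexasertib or diluent. Prexasertib inhibits CHK1, a checkpoint kinase, and LSN622666 is known here by its code name alone. All 5 groups also received 5 µM Q-VD-OPh, a pan-caspase inhibitor, so no group shows cells without it; no group received LSN622666 alone, and no ML1 group received it. The study's title and design text concern CDK2, TNF and transcription factors that may act on TNF. Both are established lines, and nothing in the labels says whether the 3 libraries of a group came from separate cultures, so the spread between them may be technical.

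Plasmin, which digests fibrin and matrix proteins, is made from the zymogen plasminogen by a plasminogen activator. PLAU encodes the urokinase-type activator, PLAUR its cell surface receptor, which holds the enzyme at the membrane, and SERPINB2 the plasminogen activator inhibitor PAI-2, which is largely kept inside the cell. Monocytes and macrophages are a known source of all 3, and the genes are known to respond to inflammatory cytokines and phorbol esters.

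Libraries held 49011222 to 87301014 counts, and TMM scaling factors ran between 0.923 and 1.111. Libraries of a group correlated at r = 0.982 to 0.9937 on the log2 scale, across genes. Of 11 myeloid genes, 9 had a mean above 1 CPM (counts scaled to a common library total) in each group, among them PTPRC, SPI1 and CD33. CD34 and KIT were below 1 CPM in each group, and CD34 was at 0 in the ML1 libraries. MPO averaged 2.51 CPM in U937 and 948 CPM in ML1 with diluent. Of 16 markers of lymphoid, epithelial, stromal, endothelial, erythroid and platelet cells, 4 or 5 had a mean above 1 CPM in each group. Their summed level was 223 to 302 CPM in ML1 cells with prexasertib and 49.3 to 94.1 CPM in the other 4 groups. PECAM1, which myeloid cells can also carry, was the one that rose most clearly there (log2 2.35 ± 0.181 SE, adjusted p = 1.1e-08 by edgeR). CD3D, CD3E and EPCAM were at 0 in every group. The part of these genes in the results was not tested.

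In the GENCODE v29 annotation of GRCh38, SERPINB2 spans 63871692 to 63903890 of chromosome 18 on the plus strand. PLAU spans 73909177 to 73917497 of chromosome 10 on the plus strand, and PLAUR 43646095 to 43670547 of chromosome 19 on the minus strand. SERPINB10, on the same strand, shares 547 of the 2748 exon bases of SERPINB2. C10orf55, on the opposite strand, shares 916 of the 2950 exon bases of PLAU. The library kit does not mark strand, so reads in the bases shared by PLAU and C10orf55 cannot be assigned to one gene. Strand could not separate SERPINB2 from SERPINB10 in any case. The values of SERPINB2 and PLAU are uncertain to that extent. C10orf55 counts were 1.66% to 7.17% of the PLAU counts in any library, which does not show reads that may have been dropped from both genes. C10orf55 was higher with prexasertib, as PLAU was. Its log2 fold change was 1.293 ± 0.289 SE in U937 (adjusted p = 0.0035 by edgeR) and 1.615 ± 0.289 in ML1 (adjusted p = 0.00016). For the combination against prexasertib it was -0.603 ± 0.278 (adjusted p = 0.11), and for U937 against ML1 with diluent 0.08 ± 0.297 (adjusted p = 0.83).

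The promoters of the genes are shown because all 3 members were higher with prexasertib; RefSeq gives them on GRCh38.p14 as 250 bases before to 50 bases after a transcription start. Both strands were searched for 6 motifs, and capitals mark each match. The letters searched were TGANTCA for the AP-1 factors and TGACGTCA for the CRE that ATF and CREB factors bind. GGGCGG was searched for the zinc finger factor SP1, TATAAA for the core promoter motif TATA, and GAGGAA for the myeloid factor PU.1. The kB motif of NF-kB was searched as well. No marked match overlapped another. The windows are chr18:63887455-63887754 on the plus strand for SERPINB2, chr10:73910882-73911181 on the plus strand for the second start of PLAU, and chr19:43670120-43670419 on the minus strand for PLAUR.
SERPINB2: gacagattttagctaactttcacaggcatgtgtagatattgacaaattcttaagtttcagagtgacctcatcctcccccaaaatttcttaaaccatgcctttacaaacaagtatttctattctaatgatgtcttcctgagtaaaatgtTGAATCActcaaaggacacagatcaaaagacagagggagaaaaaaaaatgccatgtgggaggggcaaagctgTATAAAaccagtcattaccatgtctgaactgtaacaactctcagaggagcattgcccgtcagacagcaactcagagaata
PLAU: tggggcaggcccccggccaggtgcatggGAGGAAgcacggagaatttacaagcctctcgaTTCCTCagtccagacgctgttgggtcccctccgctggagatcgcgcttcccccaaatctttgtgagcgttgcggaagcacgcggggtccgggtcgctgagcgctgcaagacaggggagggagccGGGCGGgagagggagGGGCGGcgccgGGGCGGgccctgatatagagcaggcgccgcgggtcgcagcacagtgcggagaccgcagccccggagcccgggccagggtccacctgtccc
PLAUR: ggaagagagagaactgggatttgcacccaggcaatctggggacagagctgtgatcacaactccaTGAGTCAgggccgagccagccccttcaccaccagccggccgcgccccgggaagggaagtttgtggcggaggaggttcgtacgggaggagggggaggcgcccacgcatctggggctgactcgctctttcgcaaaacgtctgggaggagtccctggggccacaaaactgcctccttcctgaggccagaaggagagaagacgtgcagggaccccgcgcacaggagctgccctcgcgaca
The SERPINB2 window held an AP-1 match 102 bases and a TATA match 30 bases before the start, and its GC content was 39.0%. The PLAUR window held an AP-1 match 186 bases before the start and had a GC content of 64.0%. The PLAU window held 3 SP1 and 2 PU.1 matches at a GC content of 70.0%, and the window of the other PLAU start, with 48.7% GC, held none of the 6 motifs. Over 35116 RefSeq windows of this length, the AP-1 letters were present in 7.71%, CRE in 1.85%, kB in 11.3%, SP1 in 45.0%, TATA in 11.5% and PU.1 in 27.9%, and the median GC content was 58.7%. These matches describe the letters of the windows and were not tied to any binding.

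SERPINB2, the inhibitor, was the member that separated the lines most: it was abundant in U937 cells and close to absent in ML1 cells. U937 cells had 129, 133 and 104 CPM with the combination, 178, 211 and 140 CPM with prexasertib, and 102, 99.9 and 75.6 CPM with diluent. ML1 cells had 7.34, 5.01 and 3.09 CPM with prexasertib, and 0.696, 0.498 and 0.178 CPM with diluent. No library of any group overlapped the neighbouring group in the order ML1 diluent, ML1 prexasertib, U937 diluent, U937 combination and U937 prexasertib. The ML1 diluent libraries rested on 41, 42 and 10 counts, so the folds against them are imprecise. In these bulk libraries, more cells with a transcript and more transcript per cell cannot be told apart.

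With prexasertib, SERPINB2 averaged 176 ± 35.9 CPM in U937 cells, against 92.5 ± 14.7 CPM with diluent (SD, n = 3 each), a log2 fold change of 0.93 ± 0.258 (SE). In ML1 cells it averaged 5.15 ± 2.13 CPM with prexasertib and 0.457 ± 0.262 CPM with diluent (SD, n = 3 each), a log2 fold change of 3.47 ± 0.351. The relative difference was thus larger in the line with the lower level, and the U937 minus ML1 difference of the log2 fold changes was -2.54 ± 0.438 (SE). Even so, each ML1 library with prexasertib stayed below each U937 diluent library. With diluent alone, the level in U937 cells over that in ML1 cells was 199-fold (log2 7.64 ± 0.371, SE). These SEs come from the model over all libraries. The SERPINB2 libraries themselves had a pooled SD of 0.794 on the log2 scale in the ML1 groups compared, and 0.273 in the U937 prexasertib and diluent groups. The SE may thus understate the spread in ML1.

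With the combination, SERPINB2 averaged 122 ± 15.8 CPM (SD, n = 3), below prexasertib alone by a log2 fold change of -0.53 ± 0.256 and above diluent by 0.40 ± 0.256 (SE). The combination libraries lay between those groups without overlapping either. Same-numbered combination and prexasertib libraries deviated together, and with the replicate number as a block the fold change against prexasertib was -0.52 and its SE was 0.0964. Within the 3 U937 groups and the 2 ML1 groups, replicate 3 was the lowest SERPINB2 library each time.

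PLAU, the urokinase activator, was present in both lines and was higher with prexasertib in each. U937 cells had 33.5, 30.1 and 34.5 CPM with the combination, 80.2, 69.4 and 60.3 CPM with prexasertib, and 34.5, 31.4 and 31.6 CPM with diluent. ML1 cells had 38.6, 51.0 and 45.4 CPM with prexasertib, and 9.24, 10.4 and 11.4 CPM with diluent. The combination and diluent libraries of U937 overlapped, while all other groups that neighbour each other in level were separate.

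In U937 cells PLAU averaged 70.0 ± 9.93 CPM with prexasertib and 32.5 ± 1.75 CPM with diluent (SD, n = 3 each), a log2 fold change of 1.11 ± 0.133 (SE). In ML1 cells it averaged 45.0 ± 6.21 CPM with prexasertib and 10.3 ± 1.07 CPM with diluent, a log2 fold change of 2.12 ± 0.138. The U937 minus ML1 difference of these effects was -1.01 ± 0.187 (SE), the smallest in size of the 3 members. PLAU in ML1 cells with prexasertib was above PLAU in U937 cells with diluent in every library.

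With the combination, PLAU was close to its diluent level. It averaged 32.7 ± 2.35 CPM with the combination (SD, n = 3), a log2 fold change of -1.10 ± 0.133 against prexasertib and of 0.01 ± 0.132 against diluent (SE). The sign of that last value was not stable, with values of -0.04 to 0.11 over the settings tried. With diluent, U937 cells were above ML1 cells by a log2 fold change of 1.65 ± 0.136.

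PLAUR, the urokinase receptor, was the only member whose highest level was in ML1 cells. U937 cells had 24.1, 26.7 and 21.1 CPM with the combination, 50.1, 57.9 and 45.4 CPM with prexasertib, and 36.2, 28.8 and 25.6 CPM with diluent. ML1 cells had 110.4, 124.8 and 98.7 CPM with prexasertib, and 15.5, 15.6 and 14.1 CPM with diluent. With diluent the order of the lines was the opposite, each U937 library being above each ML1 library (log2 fold change 1.00 ± 0.143, SE).

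In ML1 cells PLAUR averaged 111 ± 13.1 CPM with prexasertib and 15.1 ± 0.808 CPM with diluent (SD, n = 3 each), a log2 fold change of 2.88 ± 0.151 (SE). In U937 cells it averaged 51.1 ± 6.30 CPM with prexasertib and 30.2 ± 5.43 CPM with diluent, a log2 fold change of 0.76 ± 0.142. The U937 minus ML1 difference of the effects was -2.13 ± 0.202. As with SERPINB2, replicate 3 was the lowest PLAUR library in each of the 5 groups.

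With the combination PLAUR averaged 24.0 ± 2.80 CPM (SD, n = 3), below prexasertib by a log2 fold change of -1.09 ± 0.142 (SE). Against diluent the value was -0.33 ± 0.142, and the groups overlapped. Thus the combination mean lay above the diluent mean for SERPINB2, next to it for PLAU and below it for PLAUR.

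**Figure D1:**
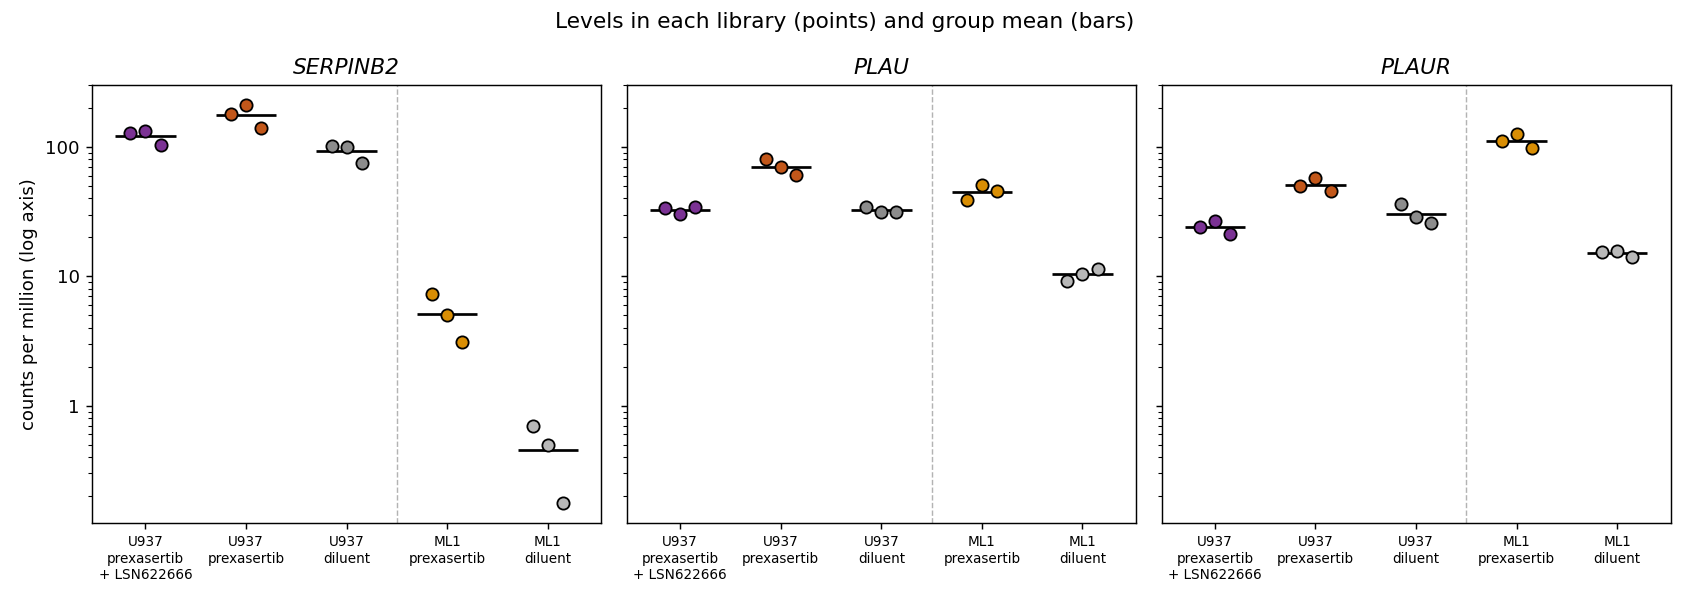
Levels of SERPINB2, PLAU and PLAUR in CPM on a log axis, with 1 point for each library and a bar for the mean of each of the 5 groups of 3. SERPINB2 spans 0.178 to 211 CPM across the lines, PLAU and PLAUR a narrower range, and PLAUR has its highest values in ML1 cells with prexasertib.

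Set beside all genes, non-overlap between 3 and 3 libraries was common in these data. In the prexasertib and diluent comparison of U937, 3 of 3 members were higher without overlap, against 24.0% of all tested genes higher and 20.0% lower. In ML1 cells, 3 of 3 members were higher without overlap, against 30.0% of genes higher and 29.1% lower. For the combination against prexasertib, 3 of 3 members were lower, against 23.4% of genes lower and 18.8% higher. For the combination against diluent, 1 of 3 was higher (SERPINB2), against 17.8% higher and 17.9% lower. For U937 against ML1 with diluent, 3 of 3 were higher, against 35.4% higher and 33.9% lower. The members were selected with these contrasts known, so nothing is read from these counts. The median log2 fold change over all tested genes lay between -0.00121 and 0.0298 in the 6 comparisons, and the comparisons within a line share their diluent or prexasertib libraries.

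**Figure D2:**
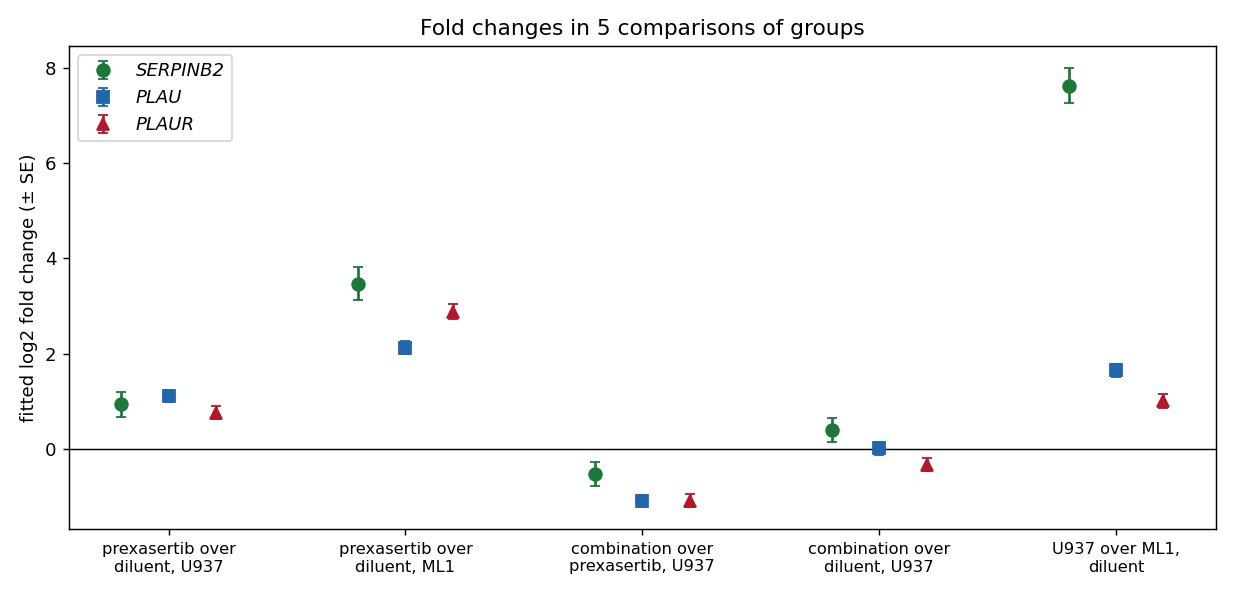
Fitted log2 fold changes of the 3 genes (points) with their standard errors (bars) in 5 comparisons of groups, the first-named group over the second. All 3 are above 0 with prexasertib in both lines, with larger values in ML1, and below 0 for the combination over prexasertib, while SERPINB2 alone exceeds 7 for U937 over ML1.

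Levels were compared between the genes per length, as CPM per kb of the 1913-base SERPINB2-201, 2321-base PLAU-201 and 1548-base PLAUR-203 transcripts. All annotated exons together cover 2748, 2950 and 4457 bases of these genes, so the size of a ratio depends on the transcript chosen. The comparison of 1 ratio between libraries does not. PLAU and SERPINB2 values also carry the uncertainty of their shared exon bases. SERPINB2 RNA exceeded PLAU RNA in every U937 library and was below it in every ML1 library. The SERPINB2 over PLAU ratio was 4.56 ± 0.862 with the combination, 3.07 ± 0.548 with prexasertib and 3.45 ± 0.490 with diluent in U937 cells (SD, n = 3 each). In ML1 cells it was 0.144 ± 0.0773 with prexasertib and 0.0561 ± 0.0362 with diluent, and these groups overlapped. In U937 cells, prexasertib and diluent overlapped as well, with ranges of 2.70 to 3.70 and 2.91 to 3.86, so the ratio did not separate them although both genes were higher with prexasertib.

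By these transcript lengths, the receptor was nearly level with the enzyme in U937 cells and above it in ML1 cells. With the longer exon total of PLAUR as its length, these ratios would be lower. The PLAUR over PLAU ratio in U937 was 1.11 ± 0.208 with the combination, 1.11 ± 0.158 with prexasertib and 1.39 ± 0.176 with diluent (SD, n = 3 each), and neighbouring groups overlapped. In ML1 it was 3.74 ± 0.519 with prexasertib and 2.21 ± 0.331 with diluent, without overlap between 3.26 to 4.29 and 1.86 to 2.52. ML1 libraries had more receptor RNA per enzyme RNA in both of its groups than any U937 library had.

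**Figure D3:**
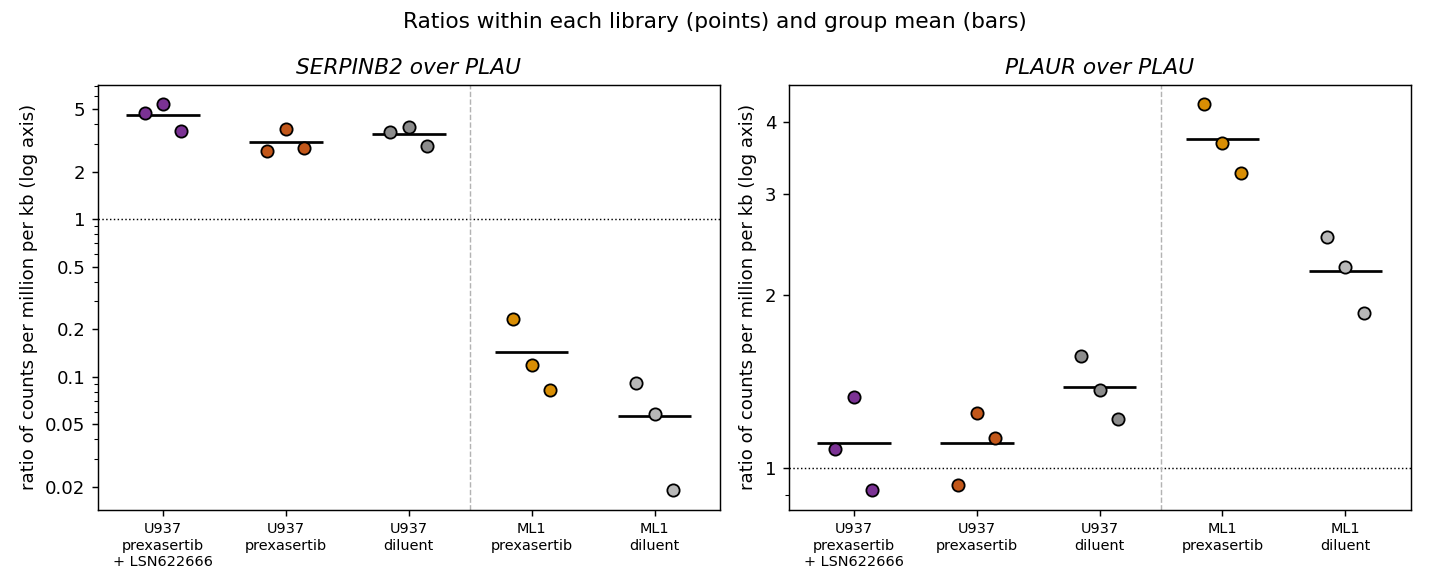
Ratios of SERPINB2 over PLAU and of PLAUR over PLAU within each library, in CPM per kb of transcript on log axes, with bars for group means and a dotted line at 1. SERPINB2 over PLAU is above 1 in all 9 U937 libraries and below 1 in all 6 ML1 libraries, and PLAUR over PLAU is 1.86 or more in each ML1 library.

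The other genes of the system were followed through 4 lists of 53 genes, of which 44 were tested: plasminogen and other activators, protease inhibitors, cell surface partners, and matrix proteases with their inhibitors. Each was tested with edgeR's quasi-likelihood test and Benjamini-Hochberg adjustment over all tested genes. These lists and those below were chosen with earlier results of these data known. Their counts are therefore a description and not independent support. PLG, which encodes plasminogen itself, averaged 0.475 CPM at most, and PLAT, the tissue-type activator, 0.669 CPM at most, both in U937 cells with the combination. Little RNA of the substrate or of the other main activator was thus counted in either line.

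In ML1 cells with prexasertib, 23 of the 44 genes rose and 3 fell, with a median log2 fold change of 0.89, against 25.3% of all tested genes that rose and 23.5% that fell. The matrix metalloproteinases MMP9 and MMP19 were among those that rose. MMP9 averaged 51.7 ± 20.6 CPM with prexasertib and 0.534 ± 0.152 CPM with diluent (SD, n = 3 each; log2 6.57 ± 0.423 SE, adjusted p = 1.2e-09 by edgeR). MMP19 averaged 17.2 ± 1.19 CPM with prexasertib and 0.524 ± 0.173 CPM with diluent (adjusted p = 3e-10 by edgeR). ITGAM, the alpha subunit of the Mac-1 integrin that associates with the urokinase receptor, averaged 146 ± 10.6 CPM with prexasertib and 32.1 ± 0.778 CPM with diluent (adjusted p = 2.7e-08 by edgeR). SERPING1, the C1 inhibitor, had 356 counts over the 3 prexasertib libraries and 0 with diluent, at least 140-fold higher against a floor of 3 counts over the group. Of the 3 genes that fell, ENO1, a plasminogen-binding glycolytic enzyme, had a log2 fold change of -1.01; the others were the plasminogen receptor PLGRKT and the integrin gene ITGB1, at -0.48 and -0.36.

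In U937 cells with prexasertib, 12 of the 44 genes rose and 7 fell, with a median log2 fold change of 0.22 (0.20 with SERPING1 at its bound), against 18.3% and 12.8% of all tested genes. LRP1, the receptor that clears inhibitor-bound urokinase, rose in U937 to 8.19 ± 3.96 CPM with prexasertib, against 0.409 ± 0.202 CPM with diluent (SD, n = 3 each; adjusted p = 2.3e-06 by edgeR). SERPINE2, which encodes protease nexin-1, fell to 37.7 ± 9.63 CPM with prexasertib, against 58.7 ± 6.86 CPM with diluent (adjusted p = 0.015 by edgeR); without prexasertib replicate 2 its adjusted p was 0.061. The count of 7 that fell was 1 without prexasertib replicate 2 and 4 without diluent replicate 1.

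Between the lines, the prexasertib effect was higher in U937 for 3 of the 44 genes and lower for 17, against 12.4% and 12.3% of all tested genes, with a median difference of -0.59. The count of 3 was 1 without U937 prexasertib replicate 1 or without U937 diluent replicate 2. MMP9 (-4.49 ± 0.528 SE, adjusted p = 6.5e-06 by edgeR), ITGA3 (-3.02 ± 0.389, adjusted p = 1.7e-05) and ITGAM (-2.05 ± 0.252, adjusted p = 1e-05) were among the 17. SERPINE2 moved in opposite directions, with log2 fold changes of -0.64 in U937 and 1.45 in ML1 (difference -2.09 ± 0.415, adjusted p = 0.0011). The ML1 rise was between low levels, 0.131 ± 0.0326 CPM with diluent and 0.370 ± 0.141 CPM with prexasertib (SD, n = 3 each). These rested on 27 and 63 counts over each group. The U937 fall lost its call without U937 prexasertib replicate 2. In all, 19 genes were called in U937 and 26 in ML1. The 12 genes called in both lines were 12 of the 19 and 12 of the 26, with 9 in the same direction and 3 in opposite directions. Of all tested genes, 18.3% rose and 12.8% fell in U937, and 25.3% rose and 23.5% fell in ML1. The overlap of the lines was not counted over all tested genes, so nothing is read from these shared counts.

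**Figure D4:**
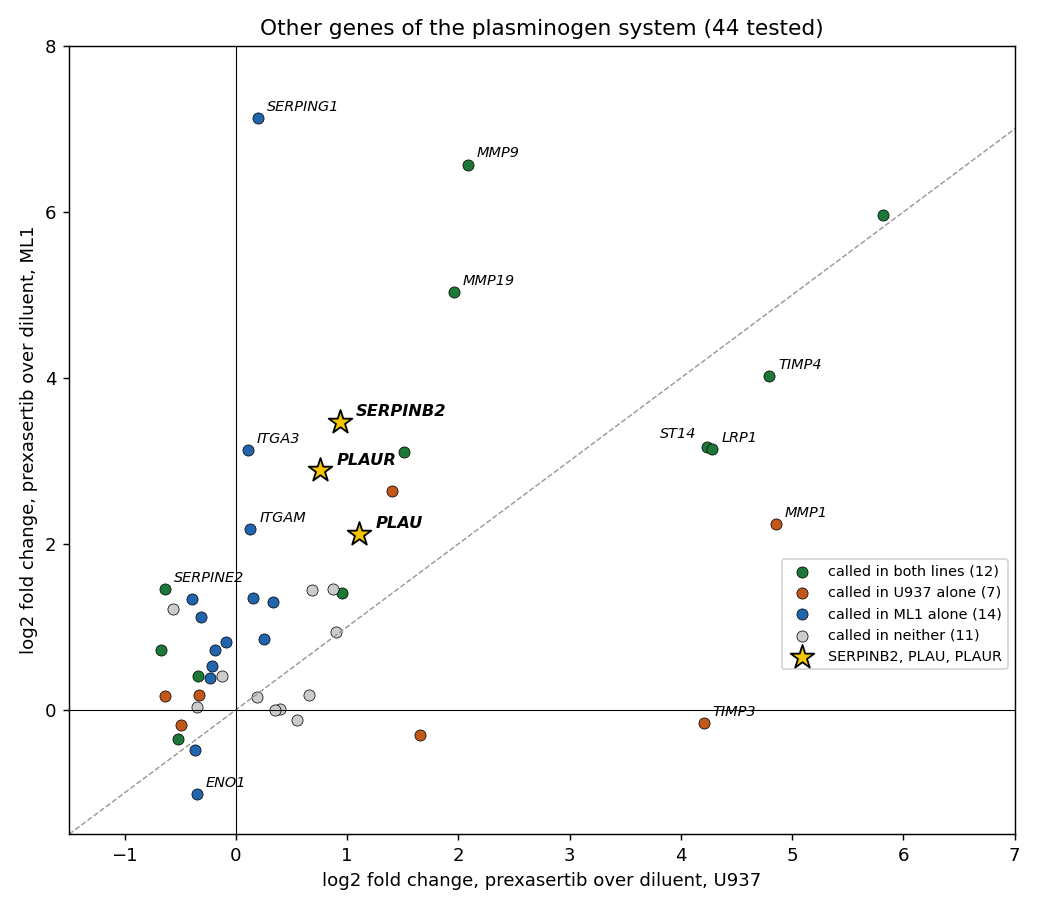
Log2 fold changes of prexasertib over diluent in U937 (x axis) and ML1 (y axis) for the 44 other plasminogen system genes, coloured by the lines in which edgeR's test called them, with SERPINB2, PLAU and PLAUR as stars and equal change on the dashed line. SERPING1, at 0 counts with diluent in both lines, is drawn at its bounds; the 3 stars lie above the dashed line.

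When LSN622666 was added to prexasertib in U937, 4 of the 44 genes rose and 8 fell, with a median log2 fold change of 0.08, against 11.9% and 17.1% of all tested genes. LRP1 (-1.48 ± 0.334, adjusted p = 0.0034), MMP9 (-1.96 ± 0.354, adjusted p = 0.00069) and FPR2, a chemotactic receptor that binds cleaved urokinase receptor (-1.53 ± 0.313, adjusted p = 0.0018), were among those that fell by edgeR's test. KLKB1, which encodes plasma prekallikrein, rose to 8.50 ± 1.69 CPM with the combination, against 2.99 ± 0.472 CPM with prexasertib (SD, n = 3 each; adjusted p = 0.0022), and the membrane protease gene MMP14 rose to 7.86 ± 3.05 CPM, against 3.32 ± 0.331 CPM (adjusted p = 0.0016). With the replicate block, 7 genes rose and 11 fell; the count of 4 was 2 without combination replicate 1 or without prexasertib replicate 2.

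Against diluent, 5 of the 44 genes rose with the combination and 2 fell, against 6.88% and 4.11% of all tested genes, with a median of 0.24. LRP1 averaged 2.94 ± 0.936 CPM with the combination and 0.409 ± 0.202 CPM with diluent (SD, n = 3 each; log2 2.80 ± 0.394 SE, adjusted p = 0.00058 by edgeR). KLKB1 (1.91 ± 0.324, adjusted p = 0.0019) and MMP14 (1.39 ± 0.253, adjusted p = 0.0031) were also higher. The count of 5 was 3 without combination replicate 2 or without diluent replicate 2 or 3. The count of 2 was 1 without any 1 of the U937 combination or U937 diluent libraries, ML1 prexasertib replicate 3 or ML1 diluent replicate 2 or 3, since SERPINE2 then missed the threshold. Upper-quartile scaling shifted the median of all genes in this comparison to 0.106, and 86.6% of its calls were higher with the combination, against 62.6% with TMM.

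With diluent, 19 of the 44 genes were higher in U937 than in ML1 cells and 8 were lower, against 32.0% and 29.4% of all tested genes, with a median log2 fold change of 0.32. SERPINE2 averaged 58.7 ± 6.86 CPM in U937 and 0.131 ± 0.0326 CPM in ML1 (SD, n = 3 each; log2 8.75 ± 0.292 SE, adjusted p = 4.7e-14 by edgeR), so a second inhibitor gene beside SERPINB2 was high in U937 and near 0 in ML1. ITGA3 averaged 10.7 ± 1.74 CPM in U937 and 0.136 ± 0.0733 CPM in ML1 (adjusted p = 7.3e-12). MMP14 was lower, at 2.99 ± 0.968 CPM in U937 and 26.8 ± 1.62 CPM in ML1 (adjusted p = 9.5e-09).

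SERPINB2 belongs to the clade B serpins, which lack a classical signal peptide. Of 12 other genes of this family, 8 were tested. With prexasertib, 3 rose and 1 fell in U937 cells, against 18.3% and 12.8% of all tested genes. In ML1 cells 4 rose and 1 fell, against 25.3% and 23.5%. SERPINB13, a cathepsin inhibitor, rose in U937 to 5.90 ± 1.86 CPM with prexasertib, against 0.0716 ± 0.0287 CPM with diluent (SD, n = 3 each; adjusted p = 2.2e-06 by edgeR), and fell with the combination to 0.362 ± 0.226 CPM (adjusted p = 2.8e-05 against prexasertib). SERPINB8 rose in both lines, by 0.69 ± 0.135 in U937 and 1.41 ± 0.137 in ML1 (adjusted p = 0.0014 and 1.8e-07). SERPINB1, an inhibitor of neutrophil proteases, had a log2 fold change of -0.64 ± 0.163 in U937 (adjusted p = 0.008). The ML1 count of 1 that fell was 0 with DESeq2, with a stricter filter of at least 5 CPM in 3 libraries and without ML1 prexasertib replicate 3 or diluent replicate 3. It was 2 with a fit of the compared groups, with the replicate block and without U937 prexasertib replicate 2. The U937 count of 1 that fell was 2 with DESeq2, with RLE scaling (the DESeq2 size factors), with no filter, with the replicate block and without U937 prexasertib replicate 1 or 3, combination replicate 1 or ML1 prexasertib replicate 1. SERPINB10, which overlaps SERPINB2, averaged 4.98 ± 1.00 CPM in U937 with prexasertib and 4.84 ± 0.471 CPM with diluent, so its level did not follow that of SERPINB2 there. In ML1 it averaged 1.02 ± 0.238 CPM with prexasertib and 0.408 ± 0.0808 CPM with diluent (adjusted p = 0.00061).

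PLAUR belongs to the LY6 and urokinase receptor domain family, whose members share a disulfide-bonded fold. Of 14 other family genes, 9 were tested, and 7 of these rose with prexasertib in ML1 cells, against 25.3% of all tested genes, with none lower by edgeR or DESeq2 or at an unadjusted p under 0.05. With the stricter filter, which drops low genes, 1 rose. Of the 14, 6 averaged at least 1 CPM in ML1 with prexasertib and 3 with diluent. In U937 cells 2 rose and 1 fell, against 18.3% and 12.8%; without U937 prexasertib replicate 2 these counts were 1 and 0, and none rose with the stricter filter. LY6E averaged 288 ± 41.5 CPM with prexasertib and 31.0 ± 1.24 CPM with diluent in ML1 (SD, n = 3 each; log2 3.22 ± 0.158 SE, adjusted p = 4.8e-11 by edgeR). In U937 LY6E fell to 91.4 ± 19.7 CPM with prexasertib, against 133 ± 9.14 CPM with diluent (adjusted p = 0.01, and 0.053 without prexasertib replicate 2). The difference between the lines passed the test (-3.76 ± 0.211, adjusted p = 1.7e-09). LY6K had 226 counts over the ML1 prexasertib libraries and 0 with diluent, at least 88.9-fold higher against the floor of 3 counts over the group.

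A list of 18 genes reported to act on these promoters or transcripts was followed, among them AP-1, NF-kB and ETS factors and the RNA-binding protein ZFP36. With prexasertib, 14 of the 18 rose in U937 and 13 in ML1, against 18.3% and 25.3% of all tested genes. None fell in either line by edgeR over all libraries, by DESeq2 or at an unadjusted p under 0.05, although 1 fell in ML1 without ML1 diluent replicate 1. The median log2 fold change of the list was 0.75 in U937 and 1.94 in ML1. JUN, an AP-1 subunit, averaged 558 ± 268 CPM with prexasertib and 27.4 ± 2.62 CPM with diluent in U937 (SD, n = 3 each; log2 4.35 ± 0.416 SE, adjusted p = 6.6e-06 by edgeR). FOSB, another subunit, rose in ML1 to 71.3 ± 29.7 CPM with prexasertib, against 0.610 ± 0.0389 CPM with diluent (adjusted p = 3.2e-10). With the combination against prexasertib, 15 of the 18 fell, against 17.1% of all tested genes, and none rose by either tool or at an unadjusted p under 0.05 (median -0.91). JUN fell to 38.9 ± 22.3 CPM with the combination, against 558 ± 268 CPM with prexasertib (adjusted p = 2.2e-05 by edgeR), and JUND to 47.4 ± 5.35 CPM, against 174 ± 34.1 CPM with prexasertib (adjusted p = 1.6e-06). Between the lines, the effect was lower in U937 for 7 of the 18 (12 with the replicate block), against 12.3% of all tested genes, with the smallest adjusted p for CEBPB (-2.00 ± 0.190, adjusted p = 6.3e-07) and FOSL1 (-2.53 ± 0.253, adjusted p = 1.1e-06). The list was chosen with earlier results of these data known, so its counts are given as a description. Whether any of these factors acted on the 3 genes was not tested.

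Monocyte and macrophage markers rose with prexasertib in ML1, while the 3 members were higher with prexasertib in both lines. Of 17 markers, 14 were tested, and 13 rose in ML1 cells, against 25.3% of all tested genes, with a median log2 fold change of 2.43; none fell by edgeR or DESeq2 or at an unadjusted p under 0.05. Their summed level was 3970 to 5520 CPM with prexasertib and 663 to 906 CPM with diluent. CD68 averaged 354 ± 29.4 CPM with prexasertib and 68.8 ± 2.67 CPM with diluent (SD, n = 3 each; adjusted p = 3.3e-11 by edgeR). In U937 cells 3 markers rose and 1 fell, against 18.3% and 12.8% of all tested genes, and the summed level was 325 to 363 CPM with prexasertib and 326 to 397 CPM with diluent. The count of 3 was 1 with the stricter filter. The count of 1 was 0 with that filter, 3 with the replicate block, and 2 with DESeq2, with a fit of the compared groups and without U937 diluent replicate 2 or ML1 diluent replicate 1. The U937 minus ML1 difference passed the test for 11 of the 14 markers, all lower in U937, against 12.3% of all tested genes. The scavenger receptor gene MSR1 was at 0 in all U937 libraries and, with MRC1, in the ML1 diluent libraries, while CD163 and FCGR3A were at 0 in the U937 diluent libraries. CD14, which defines monocytes, averaged 5.30 ± 2.28 CPM with prexasertib and 0.186 ± 0.0400 CPM with diluent in ML1. Of the 11 other myeloid genes, 3 rose and 4 fell with prexasertib in ML1, against 25.3% and 23.5% of all tested genes. The 4 were MPO, ELANE, PRTN3 and AZU1. In U937, 2 rose and 3 fell, against 18.3% and 12.8%, and both counts were 0 without U937 prexasertib replicate 2. The part of the marker change in the ML1 values of PLAU, PLAUR and SERPINB2 was not tested.

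The genes most like each member were those with the smallest root mean square (RMS) difference of centred log2 CPM over the 15 libraries, among 11828 genes that averaged at least 5 CPM in 1 or more groups. For PLAUR they were CEBPB (0.218), FCGR1C (0.228), MAP3K8 (0.288), NCOA7 (0.288) and FOSL1 (0.299). CEBPB, a myeloid transcription factor, averaged 47.6 ± 1.51 CPM with prexasertib in U937, against 28.1 ± 4.02 CPM with diluent, and 134 ± 15.2 CPM in ML1, against 19.8 ± 2.37 CPM with diluent. FCGR1C counts are uncertain, since the gene is nearly identical to the other FCGR1 genes. For PLAU the nearest were TNFRSF12A (0.270), TRAF4 (0.276), NFKBIE (0.278), NEU1 (0.280) and FAM212B (0.282), which include a TNF superfamily receptor, a TRAF adaptor and an NF-kB inhibitor. For SERPINB2 they were PNPLA1 (0.501), SPRY4 (0.535), NRP2 (0.627), FOXF1 (0.665) and MGST1 (0.696). The RMS difference is not scaled to a gene's range, which was widest for SERPINB2, so it does not rank closeness between members. Over the 5 group means in place of the libraries, 2 of the 5 names were kept for each member. They were PNPLA1 and SPRY4 for SERPINB2, NFKBIE and NEU1 for PLAU, and CEBPB and FCGR1C for PLAUR.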

How the data were processed

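RNA-seq of 15 libraries in 5 groups of 3 was used, with groups and replicate numbers as labelled and each count column mapped to its own sample. The values that the authors deposited are raw counts per gene symbol, without normalization. Per the submitters' processing notes, TopHat2 2.0.14, Bowtie2 2.2.6 and featureCounts 1.4.6 (Subread) were used with the hg38 build; per the labels' protocols, RNA was extracted with RNeasy and converted to libraries with the TruSeq RNA kit. The sources used here do not give the annotation, strand setting or counting of read pairs.

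Counts were analysed with edgeR 4.0.16 in R 4.3.3: filterByExpr (17243 genes kept), TMM scaling, and 1 robust quasi-likelihood model with a mean per group over all libraries (10 residual degrees of freedom; median BCV, the biological coefficient of variation, 0.163). P-values were adjusted by Benjamini-Hochberg over all tested genes and called under 0.05. Each SE is the absolute log2 fold change over the square root of the quasi-likelihood F statistic. It therefore rests on spread estimated over all libraries and genes, and not on the libraries compared alone. CPM uses TMM-scaled totals. Library totals of 49011222 to 87301014 counts set the depth, and the floor of 3 counts covers counting error only. Folds against a group at 0 were set against that floor. Exon overlaps, coordinates and transcript lengths came from GENCODE v29, promoters from RefSeq.

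The members and lists were chosen with earlier results of these data known. Named by rule were the members, PLAT and PLG, up to 3 called genes with the smallest p per list and comparison (mean of at least 1 CPM in a group compared), and 5 like genes per member; 2 genes within the rule are not reported here, although counts of genes include them. ENO1 and PLGRKT in the text, and MMP1, TIMP3, TIMP4 and ST14 as labels in a figure, were named after their values were seen. Alternatives were other scalings, filters and prior counts, DESeq2 1.42.0, a fit of the compared groups, the replicate block within each line and each library left out. The fit was tested on simulated data.

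Same-numbered libraries were read as paired from the data where all 3 correlations of their deviations were above 0.1. That limit was met only by U937 combination and prexasertib (0.409, 0.37 and 0.384). Positive values that missed it were 0.386, 0.268 and 0.0477 for U937 combination and diluent, and 0.317, 0.102 and 0.0621 for U937 prexasertib and diluent. For the 2 ML1 groups they were 0.161, 0.0901 and 0.0604. A weaker shared effect of the replicate number is therefore possible there. The labels name no shared batch.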

Additional observations from a re-analysis of the deposited data

Results flagged for a closer look

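The fixed rule took up to 3 called genes with the smallest p per list for each comparison. For the difference of the prexasertib effect between U937 and ML1, the 25 genes reported below were named. The test was edgeR's test of the difference itself, with adjustment over all tested genes. These genes were picked by that same test, so all passed it by construction, and 25 does not count the genes that differ. Genes named for other comparisons also passed it, among them JUN (-2.38, adjusted p = 0.0036 by edgeR), JUND (-1.46, adjusted p = 4.8e-05) and MMP14 (-1.19, adjusted p = 0.018). The values are the log2 fold change in U937 minus that in ML1. SERPINB2, PLAU and PLAUR have no test of this difference, because they were chosen with it known. The lists that hold the 25 genes were also chosen with earlier results known, so these values are a description too.

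Among genes of the plasminogen system the difference was -4.49 for MMP9, -3.08 for MMP19, -3.02 for ITGA3, -2.09 for SERPINE2, -2.05 for ITGAM, -1.73 for MMP2, -1.44 for ITGB2, -0.90 for CTSB and -0.90 for F12. The F12 call was lost in 14 of 22 alternatives, with an adjusted p of 0.11 without ML1 prexasertib replicate 3 and 0.15 without ML1 prexasertib replicate 2. SERPINE2, LY6E and MPO were called in opposite directions in the 2 lines. The U937 call of each was lost without U937 prexasertib replicate 2, and SERPINE2 averaged 0.370 CPM at most in ML1. Among the relatives of SERPINB2 the difference between the lines was -1.30 for SERPINB10, -0.99 for SERPINB1 and -0.72 for SERPINB8. Among the relatives of PLAUR it was -3.76 for LY6E and -9.10 for LY6K, whose ML1 diluent libraries were all at 0, so that its fitted value is no bound.

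Among the reported regulators it was -4.00 for FOSB, -2.53 for FOSL1 and -2.00 for CEBPB. Among monocyte markers it was -3.22 for LYZ, -2.75 for CSF1R and -2.25 for CD68. Among other myeloid genes it was 1.76 for MPO, -1.23 for CSF3R and -0.97 for SPI1. Among markers of other cell types it was -2.81 for PECAM1 and 1.21 for CD79A.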

How the results depend on the processing

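Fold changes of SERPINB2, PLAU and PLAUR kept their sign in each alternative run, except PLAU for the combination against diluent, which kept it in 16 of 24. That value moved by more than the replicate spread to 0.11 with upper-quartile scaling and to 0.11 with the stricter filter. Counts of plasminogen system genes moved by more than 1.5 times as follows; causes were not tested. For U937 prexasertib against diluent, the 7 that fell were 4 with upper-quartile scaling, 3 with the stricter filter, 3 with a fit of the compared groups and 12 with the replicate block (1 to 8 with a library left out), and the 12 that rose were 5 with the stricter filter. For the combination against prexasertib, the 4 that rose were 7 with the replicate block (2 to 4 with a library left out), and the 8 that fell were 5 with the stricter filter. For the combination against diluent, the 5 that rose were 9 with DESeq2 and 9 with the replicate block (3 to 7 with a library left out), and the 2 that fell were 1 with upper-quartile scaling and 1 with the stricter filter (1 to 2 with a library left out). For the difference between the lines, the 3 higher in U937 were 1 with the stricter filter (1 to 3 with a library left out). In the other comparisons counts stayed within 1.5 times of the main value. By the limit of 0.1 on all 3 correlations, replicate numbers paired no other groups of libraries than U937 combination and prexasertib. No paired analysis was possible for U937 against ML1 with diluent because the block lies within each line. The stricter filter tests fewer genes and drops low ones. The 93 counts of SERPINB2 over the ML1 diluent libraries limit its folds there.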

Other observations

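Replicate 3 was the lowest library of SERPINB2 in 5 of 5 groups and of PLAUR in 5 of 5 groups, and the lowest of PLAU in 1 of 5. Of all tested genes, 0.673% had replicate 3 lowest in all 5 groups, 3.16% had replicate 1 lowest and 1.26% had replicate 2 lowest. The labels give no batch or date to set beside these numbers.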
